A study of Mus musculus with 6 samples.

Results

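The 9 genes described here carry out the synthesis, conjugation and hepatic uptake of bile acids: *Cyp7a1*, *Cyp7b1*, *Cyp27a1*, *Hsd3b7*, *Cyp8b1*, *Amacr*, *Slc27a5*, *Baat* and *Slc10a1*. They were chosen by name for this pathway, and all 9 were found on the arrays, on 11 of 55681 probes and among 20284 gene symbols. They were read on 6 Agilent arrays of a single colour, which cover the liver, the ovary and the uterus of controls and of BHPF-treated animals with 1 array each. BHPF is fluorene-9-bisphenol, a substitute for bisphenol A. The animals were immature female CD-1 mice, 24 days old in the labels, that received peanut oil alone (control) or 50 mg/kg body weight per day of BHPF in peanut oil by oral gavage for 3 days. The RNA of 3 mice was pooled for every array, so each group is 1 pool without a replicate, no p value can be given, and a difference cannot be set against the spread between animals.

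Hepatocytes turn cholesterol into bile acids along a classic route, which opens with 7α-hydroxylation of cholesterol, and an acidic route, which opens with oxidation of the side chain. The products are activated with coenzyme A, joined to taurine in mice, secreted into bile, reabsorbed in the intestine and taken up again by the liver from portal blood. Most of these enzymes are abundant in liver, whereas several of the acidic route are also made in other tissues, where they act on oxysterols and steroids.

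The upstream sequences are shown for a pair of genes that differed in where they were read: *Cyp8b1*, whose probe was well above background on the liver arrays alone, and *Hsd3b7*, whose probe was well above background on all 6. RefSeq windows of 250 bases before the transcript start (GRCm38.p6) were found for 4 of the 9 genes. That of *Cyp8b1* is chr9:121916306-121916555 on the minus strand, and that of *Hsd3b7* is chr7:127800359-127800608 on the plus strand. Capitals mark the motifs found.
Cyp8b1: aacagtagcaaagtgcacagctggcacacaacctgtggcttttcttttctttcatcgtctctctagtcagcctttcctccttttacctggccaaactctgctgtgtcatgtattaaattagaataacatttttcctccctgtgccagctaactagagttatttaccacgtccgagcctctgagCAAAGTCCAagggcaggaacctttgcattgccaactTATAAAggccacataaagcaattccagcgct
Hsd3b7: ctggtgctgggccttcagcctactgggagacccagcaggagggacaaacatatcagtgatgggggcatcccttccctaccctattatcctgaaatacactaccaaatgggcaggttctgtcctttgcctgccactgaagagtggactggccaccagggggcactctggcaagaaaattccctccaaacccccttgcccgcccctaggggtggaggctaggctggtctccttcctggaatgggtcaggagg

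The window of *Cyp8b1* holds the HNF4 element CAAAGTCCA, which begins 67 bases before the start, and a TATA box, TATAAA, which begins 31 bases before it, with no overlap between them. CAAAGTCCA, searched on both strands, was present in 0.384% of 32851 mouse promoter windows of this length, and TATAAA, searched on the coding strand only, in 7.59%. The window of *Hsd3b7* holds neither, nor the NR5A element AAGGTCA, which was found on either strand in 4.08% of all windows. The windows of *Cyp27a1* and *Slc10a1* hold none of the 3 motifs. A match is a description of the letters and not of binding.

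A level is the log2 intensity of a probe minus the 75th percentile of its array, and levels were compared between arrays within a probe only. A ratio is the level on the BHPF array minus that on the control array, and a gene was counted as changed at 2-fold, a log2 ratio of 1 or more in either direction. Errors are spot errors, from the spread of repeated spots of 1 probe on 1 array (SD 0.10 to 0.12 on the log2 scale, and 0.13 to 0.15 at intensities under 1000), and they leave out the variation between pools and animals. A probe well above background on 1 array of a pair only was given a bound, with its dim side raised to the lowest level well above background on that array. Between 61.3 and 74.5% of probes were well above background on an array, no probe was saturated, and the arrays shared 1 slide with the controls in row 1 and the BHPF arrays in row 2, so that treatment and row cannot be told apart. The labelled tissues carried their markers, with all 20 liver markers well above background on both liver arrays, all 10 ovary markers on both ovary arrays and all 10 uterus markers on both uterus arrays. Markers were also read in other tissues, with 18 liver markers on each ovary array and 9 uterus markers on the control ovary array. Being above background does not tell the 2 uterus arrays apart. In the authors' table of processed values, each of the 2 uterus columns holds the values of the scanner file deposited for the other. The directions below follow the scanner files as deposited for each sample, and every uterus ratio changes its sign if the table's headings are followed instead.

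In the liver, no gene of the 9 changed by 2-fold, where 4.74% of 15530 genes evaluated did. *Cyp7a1*, the rate-limiting enzyme of the classic route, had a level of 3.31 in the control and 3.24 with BHPF. The ratio of *Cyp7a1* was -0.07 ± 0.16, a difference smaller than its spot error. *Cyp7b1*, the oxysterol 7α-hydroxylase of the acidic route, had liver levels of 1.62 and 1.71, a ratio of 0.09 ± 0.16. *Cyp27a1*, the mitochondrial sterol 27-hydroxylase that opens the acidic route, went from 1.60 to 1.84, a ratio of 0.23 ± 0.05 from 10 spots on each array. *Hsd3b7*, which oxidizes the 3β-hydroxyl group and follows either hydroxylase, had levels of 4.16 and 3.92 and the lowest liver ratio of the 9 genes, -0.24 ± 0.16. *Cyp8b1*, the sterol 12α-hydroxylase that directs synthesis towards cholic acid, had levels of 0.79 and 1.19. Its liver ratio of 0.40 ± 0.16, or 1.32-fold, was the highest of the 9.

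The enzymes of side-chain processing and conjugation lay as close to the control. *Amacr*, the racemase that prepares the side chain for peroxisomal shortening, had liver levels of 3.20 and 3.30, a ratio of 0.10 ± 0.05. *Slc27a5*, the bile acyl-CoA synthetase, was read by a pair of probes with ratios of -0.01 ± 0.16 and 0.13 ± 0.16. *Baat*, which joins the activated bile acid to taurine or glycine, had levels of 3.33 and 3.60, a ratio of 0.27 ± 0.16. For *Slc10a1*, the sodium-taurocholate cotransporter that takes conjugated bile acids up from blood, the 2 probes gave liver ratios of 0.25 ± 0.16 and -0.01 ± 0.16. Differences of this size could not be set against variation between animals, because there was 1 pool a group.

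Over the 9 genes the median liver ratio was 0.10, with 7 above 0 and 2 below, beside a median of 0.00 over all genes evaluated in the liver. Of those genes, 3.2% were higher and 1.54% lower by at least 2-fold. Of the changed genes 67.5% were higher, a share that was 31.8% with scaling to the 50th percentile and 38.7% after quantile normalization. The 50th percentile moved the median of all genes in the liver to -0.30 and that of the 9 genes to -0.21, with 1 of 9 above 0, and 7 of 9 were above the median of all genes under either percentile. With the normexp background correction 5 of 9 were above 0, and the median was 0.11. The liver RNA is bulk RNA, in which fewer cells of a type and less RNA per cell cannot be told apart. The 20 liver markers had a median liver ratio of 0.02 with none changed, and their summed linear level was 891 in the control and 873 with BHPF. Of 10 neutrophil markers 8 were lower by at least 2-fold in the liver (*Ltf* -4.18, *Mmp8* -3.48 and *Ngp* -3.38 most), with a summed level of 92.9 in the control and 40.0 with BHPF. Of 7 Kupffer cell markers 2 were lower, *Marco* at -1.85 and *Adgre1* at -1.08 (summed levels 81.2 and 60.6), and of 8 cholangiocyte markers none changed (summed levels 6.48 and 5.53). The part of these cells in the liver ratios of the 9 genes was not tested.

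**Figure D1:**
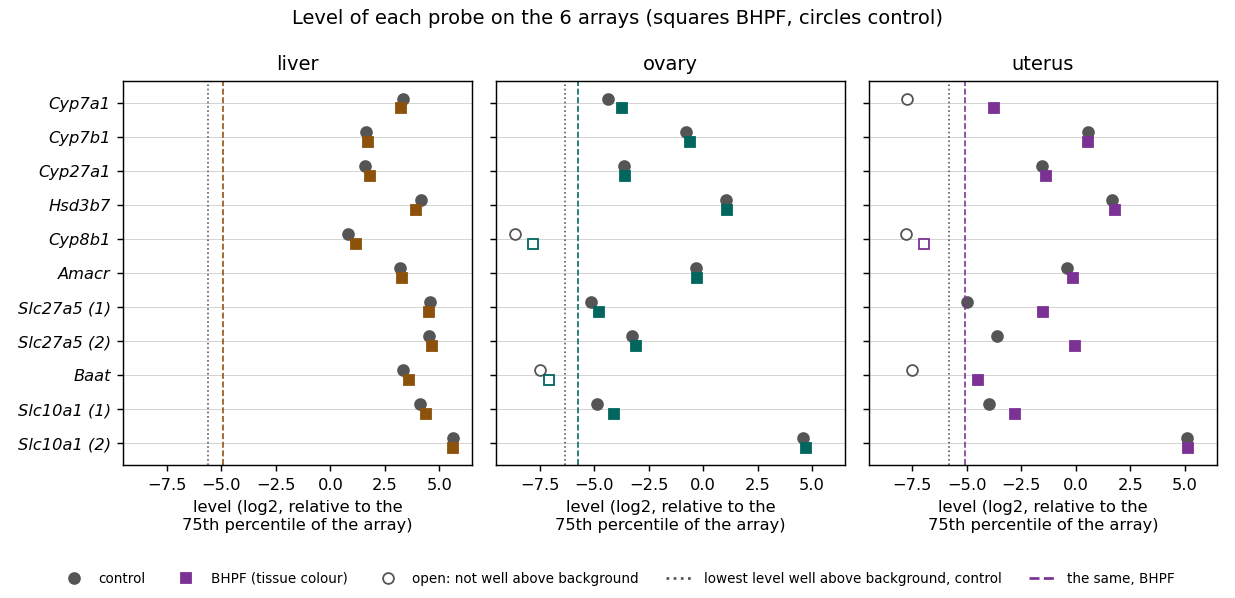
Level of each of the 11 probes (log2, relative to the 75th percentile of the array, horizontal axis) on the control (circles) and BHPF (squares) arrays of liver, ovary and uterus, with open symbols for probes not well above background and vertical lines at the lowest level well above background of each array. In the liver the 2 symbols of each probe lie within 0.40 of each other, whereas in the uterus *Cyp7a1*, *Baat* and both *Slc27a5* probes lie further right with BHPF.

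The other genes of the pathway were read from 3 lists of 51 genes. Of 14 further synthesis genes, 13 were evaluated in the liver and none changed (median 0.09), among them *Cyp2c70*, which makes muricholic acids in mice (0.00), *Scp2*, the thiolase and carrier that completes side-chain shortening (0.20 and -0.04 on 2 probes), and *Akr1c6*, a hydroxysteroid dehydrogenase (0.14). Of 17 transport genes, 16 were evaluated and none changed (median 0.13), with ratios of 0.24 for *Abcb11*, the bile salt export pump, -0.10 for *Slco1b2*, an uptake carrier of the sinusoidal membrane, and 0.31 for *Abcb4*, which moves phospholipid into bile. Of 20 regulators, 19 were evaluated and 1 rose (median -0.04). That gene was *Vdr*, the vitamin D receptor, which went from a level of -5.29 to -4.10, a ratio of 1.19 near the lower limit of measurement on both liver arrays. *Nr1h4*, the nuclear receptor that senses bile acids, had a ratio of 0.21, *Hnf4a* 0.10 and *Nr1h3*, the oxysterol receptor, -0.16 as the mean of 2 probes. *Nr0b2*, the repressor induced by *Nr1h4* that lowers *Cyp7a1* transcription, was named outside the rule for its role and had a ratio of 0.08. None of 15 genes of cholesterol synthesis and uptake changed in the liver (median 0.07), with *Hmgcs1* at -0.12. *Cyp7a1* follows a daily rhythm, and of 14 clock genes 13 were evaluated in the liver with none changed by 2-fold (median -0.16). Of these, 5 were above 0 and 8 below, from -0.80 for *Arntl* and -0.61 for *Per3* to 0.44 for *Per2*. A part of the time of day in these ratios was not tested.

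Across the tissues, every gene had its highest level in the liver. *Cyp7b1* differed least, with control levels of 1.62 in liver, 0.57 in uterus and -0.80 in ovary, and it was 2.07-fold higher in liver than in uterus. *Hsd3b7* was at 4.16, 1.65 and 1.04 in the same order, 5.70-fold higher in liver than in uterus. *Cyp27a1* was at 1.60, -1.56 and -3.61, and 8.96-fold higher in liver than in uterus. For these genes the level in the uterus exceeded that in the ovary by more than the spot error, by 1.37, 0.61 and 2.05 on the log2 scale. Differences between tissues depend on the scaling, as the 75th percentile was at 3443 in control liver, 7500 in control ovary and 5335 in control uterus. Before scaling, *Hsd3b7* had close intensities of 16708 in control uterus and 15417 in control ovary. Those of *Cyp7b1* were 10579 in control liver and 7927 in control uterus. *Amacr*, at 3.20 in liver, was -0.42 in the control uterus and -0.33 in the control ovary.

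In the controls, the remaining genes were far lower outside the liver than in it, apart from the bright *Slc10a1* probe described below. *Cyp8b1* was well above background on neither ovary array and neither uterus array, and its control liver level was at least 96.4-fold above the uterus. *Baat* was at least 561-fold and *Cyp7a1* at least 553-fold higher in the control liver than in the control uterus, where neither was well above background. The *Slc27a5* probes were 742-fold and 279-fold higher. The 2 *Slc10a1* probes disagreed although the files give them the same transcript. One, called the selective probe here, was 271-fold higher in control liver than in control uterus, and the other, called the bright probe, was high on all 6 arrays, with levels from 4.57 to 5.62 and intensities from 160511 to 185057, so it did not separate liver from the other tissues.

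In the ovary, no gene of the 7 evaluated changed by 2-fold, where 1.09% of 16863 genes did, 0.474% higher and 0.617% lower. *Cyp8b1* and *Baat* were not evaluated, since neither was well above background on an ovary array. *Cyp7a1* was measured at -4.37 in the control ovary and -3.74 with BHPF, a ratio of 0.63 ± 0.20. The selective *Slc10a1* probe went from -4.87 to -4.08, a ratio of 0.78 ± 0.20 or 1.72-fold, and the bright probe had a ratio of 0.15. Both readings rest on intensities under 500 on each ovary array. *Slc27a5* had ovary ratios of 0.36 ± 0.20 and 0.19 ± 0.20, *Cyp7b1* 0.20 ± 0.15, *Hsd3b7* 0.07 ± 0.15, *Amacr* 0.05 ± 0.05 and *Cyp27a1* 0.03 ± 0.06. All 7 evaluated genes were above 0, with a median of 0.20 beside 0.01 over all genes evaluated. With the normexp background correction 6 of 7 were above 0, and *Hsd3b7* was at -0.11. None of the 44 other bile acid genes evaluated in the ovary changed, with medians of -0.02 for synthesis, -0.01 for transport and 0.03 for regulators, nor did the genes of cholesterol supply (0.04) or the clock genes (-0.02). The 20 liver markers had a median ovary ratio of 0.13 with none changed, and summed levels of 18.7 and 20.8. Of the 10 neutrophil markers 6 were lower in the ovary, with summed levels of 15.9 and 12.3, and their part in these ratios was not tested.

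**Figure D2:**
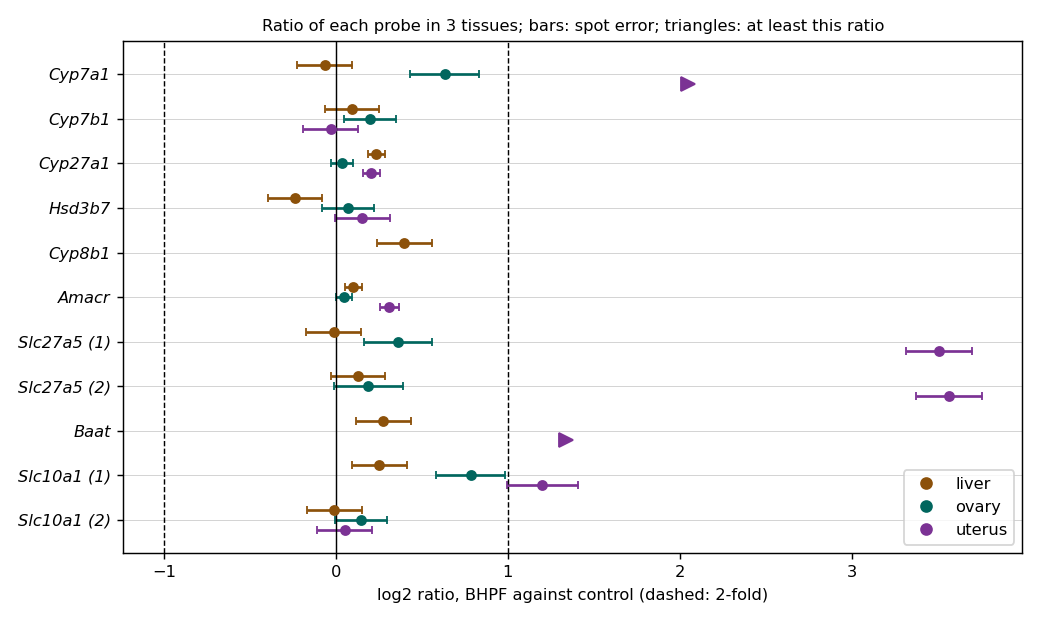
Log2 ratio of BHPF over control (horizontal axis) for each probe in liver, ovary and uterus, with bars for the spot error, triangles for lower bounds and dashed lines at 2-fold. Liver and ovary ratios lie between the dashed lines for every probe evaluated, and 5 uterus ratios lie beyond the right line, from 1.20 for *Slc10a1* (1) to 3.56 for *Slc27a5* (2).

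In the uterus, *Slc27a5*, *Cyp7a1* and *Baat* rose by more than 2-fold, and none of the 8 genes evaluated fell by as much. Of 16161 genes evaluated in the uterus, 3.09% changed by 2-fold, 2.27% higher and 0.823% lower. *Slc27a5* rose on both of its probes, from -4.99 to -1.48 on one and from -3.59 to -0.03 on the other. Its ratios were 3.51 ± 0.19 and 3.56 ± 0.19, or 11.4-fold and 11.8-fold. In intensity, these were 168 in the control and 1622 with BHPF on one probe, and 443 and 4450 on the other. Even so, *Slc27a5* in the BHPF uterus stayed below its level in either liver array, which was 4.53 or more.

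*Cyp7a1* was not well above background in the control uterus, at an intensity of 24.8, and reached 336 with BHPF, a level of -3.75. Its rise was at least 2.05 on the log2 scale, or 4.14-fold. *Baat* likewise went from an intensity of 28.9, not well above background, to 205 and a level of -4.46, a rise of at least 1.34 or 2.53-fold. The selective *Slc10a1* probe went from -3.97 to -2.77, a ratio of 1.20 ± 0.21 or 2.30-fold, whereas the bright probe was at 5.12 and 5.17, a ratio of 0.05 ± 0.16. The mean over both probes left *Slc10a1* under 2-fold, and without the bright probe 4 of the 8 genes were higher, a choice made after the values were seen. *Cyp8b1* was not well above background on either uterus array.

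The other 4 genes evaluated, all well above background in the control uterus, changed by less than 2-fold. *Amacr* went from -0.42 to -0.11, a ratio of 0.31 ± 0.05, and *Cyp27a1* from -1.56 to -1.36, a ratio of 0.21 ± 0.05. *Hsd3b7* was at 1.65 and 1.80, a ratio of 0.15 ± 0.16, and *Cyp7b1* at 0.57 and 0.54, a ratio of -0.03 ± 0.16. For *Hsd3b7* and *Cyp7b1* the difference was no larger than the spot error. The median ratio over the 8 genes was 0.47, with 7 above 0, beside 0.00 over all genes evaluated. *Cyp7a1* and *Baat*, dim in the control uterus, could not fall below 0. With probes well above background on both arrays, the median was 0.26 over 6 genes.

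Among the 10 probes evaluated, those far higher in control liver than in control uterus had the larger uterus ratios. The 5 probes with a liver level at least 271-fold above the uterus rose by at least 2-fold, and the 5 probes at 12.2-fold or less had ratios from -0.03 to 0.31. Within those 5 higher probes the ratios did not follow the order of the difference. *Slc27a5* had 3.56 at 279-fold and 3.51 at 742-fold, and *Baat* at least 1.34 at 561-fold or more. Spearman's rho between the uterus ratio and the liver-to-uterus difference was 0.90 over the 10 probes evaluated, and 0.74 over 50 probes of the other bile acid genes. Lower bounds were ranked there as if they were measured values. These are descriptions across probes, which are not replicates, and both axes share the control uterus array, so a low reading there raises both. *Cyp7a1* and *Baat*, dim in the control uterus, were evaluated only because they were well above background with BHPF, so neither could show a fall. *Cyp8b1*, at least 96.4-fold higher in control liver, was dim on both uterus arrays and is not among the 10 probes.

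**Figure D3:**
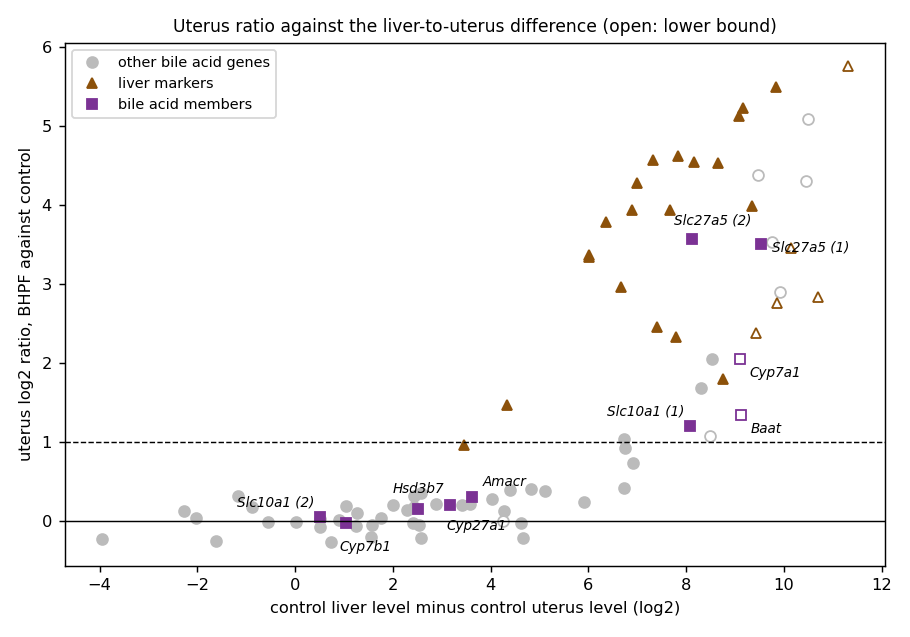
Uterus log2 ratio, BHPF against control (vertical axis), plotted against the control liver level minus the control uterus level (log2, horizontal axis) for probes of the 9 genes (squares), of the other bile acid genes (circles) and of the liver markers (triangles), with open symbols for lower bounds. Squares on the right, *Slc27a5*, *Cyp7a1*, *Baat* and *Slc10a1* (1), lie above the dashed 2-fold line, and *Amacr*, *Cyp27a1*, *Hsd3b7*, *Cyp7b1* and *Slc10a1* (2) lie between -0.03 and 0.31.

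Genes of liver cells moved with this pattern. All 20 liver markers were higher by at least 2-fold on the BHPF uterus array, with ratios from 1.22 to 5.75 and a median of 3.89. *Alb*, serum albumin, rose by 4.28 and *Ttr*, transthyretin, by 3.78 on the log2 scale. Their summed linear level was 11.8 in the control uterus and 81.3 in the BHPF uterus. On the control uterus array 16 of the 20 were well above background (*Cps1*, *Fga*, *Hpd* and *Tdo2* were not), and on the BHPF uterus array all 20 were. The 10 uterus markers had a median ratio of 0.08 with none changed, and summed levels of 45.3 and 46.1. Of other cell types in the uterus, 2 of 7 Kupffer cell markers were higher (*Clec4f* 1.21 and *Vsig4* 1.04, summed levels over the list 15.0 and 14.5), 1 of 8 cholangiocyte markers was higher (*Spp1* 1.36, summed levels 27.1 and 29.2) and 4 of 10 neutrophil markers were lower (50.0 and 40.3). The part of liver RNA in the uterus ratios of the 9 genes was not tested.

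The excess of each gene in the BHPF uterus over the control uterus was also expressed as a percentage of its control liver level, with each probe's own value where it was dim. The excess was 1.40 ± 0.16% and 3.88 ± 0.44% for the *Slc27a5* probes, 0.702 ± 0.088% for *Cyp7a1*, 0.397 ± 0.052% for *Baat* and 0.479 ± 0.096% for the selective *Slc10a1* probe. *Amacr* and *Cyp27a1*, which changed by less than 2-fold, had an excess of 1.96 ± 0.35% and 1.71 ± 0.42%, within the range of the genes that rose. For *Cyp7b1* (-1.02 ± 5.26%), *Hsd3b7* (1.97 ± 2.05%) and the bright *Slc10a1* probe (2.49 ± 7.93%) the spot error was larger than the excess. *Cyp8b1* gave a limit only, with an excess of at most 1.73%. The median over 10 probes of 8 genes, without *Cyp8b1*, was 1.55%, beside 6.33% over 25 probes of the liver markers, which ranged from 0.410 to 15.6%. Both *Slc27a5* probes read 1 gene and differed more than their spot errors allow, so the percentages are also probe dependent.

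**Figure D4:**
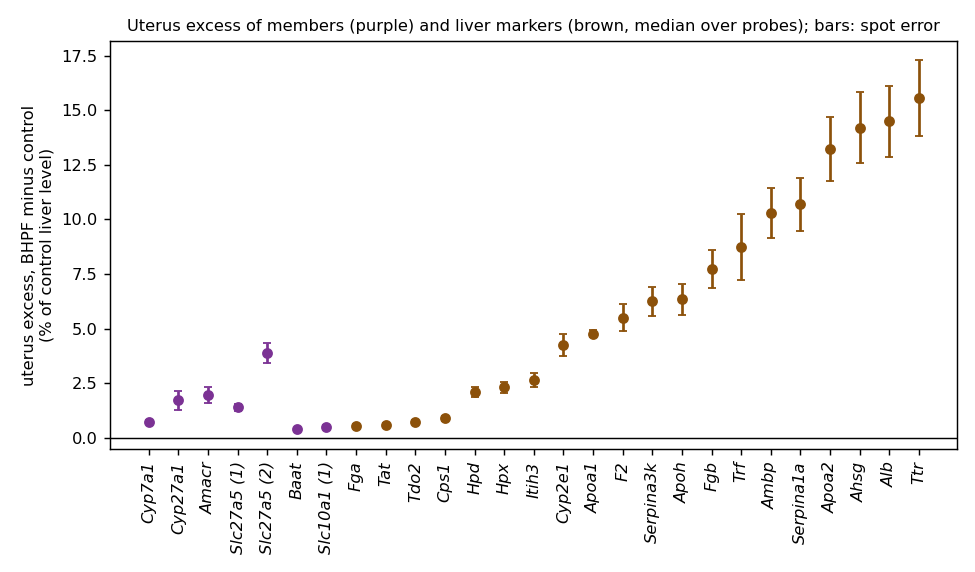
Excess of the BHPF uterus over the control uterus as a percentage of the control liver level (vertical axis), for the 7 probes of the bile acid genes whose control liver level was at least 3 above the uterus on the log2 scale (purple) and for 20 liver markers (brown), with bars for the spot error. The purple points lie between 0.397 and 3.88%, and the brown points reach 15.6% for *Ttr*.

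Of all genes evaluated in the uterus, 2.27% were higher by at least 2-fold and 0.823% lower. Of the other bile acid genes, 9 of 40 evaluated there were higher by at least 2-fold and none lower. Of their 12 evaluated probes with a control liver level at least 64-fold above the uterus, 9 were higher by 2-fold. The others were *Acox2* at 0.92, 1 *Nr1i3* probe at 0.73 and *Slco1a4* at 0.42. A probe dim on the control uterus array was evaluated only if well above background with BHPF, so it could not count as lower. Probes of *Abcc2*, *Acnat1*, *Akr1d1* and *Acnat2*, at least 173-fold higher in control liver, were dim on both uterus arrays and left out. In synthesis 3 of 11 rose (median 0.21), namely *Akr1c6* by at least 5.09, *Cyp2c70* by at least 4.30 and *Acnat2*, a relative of *Baat*, by 1.68 on 1 of its 2 probes, the other being not well above background. Synthesis genes that did not change included *Scp2*, with uterus ratios of -0.02 and 0.18 on its probes, *Abcd3*, a peroxisomal carrier of bile acid intermediates, at 0.04, and *Cyp39a1*, an oxysterol 7α-hydroxylase, at -0.27. In transport 4 of 12 rose (median 0.22), namely *Slco1b2* by at least 4.38, *Abcb11* by at least 3.53, *Slco1a1*, an uptake carrier, by at least 1.08 and *Abcg5*, a sterol exporter, by 1.04. The exporters *Abcg2*, *Abcc3* and *Abcc4* had ratios of 0.02, -0.05 and 0.04. Of the regulators 2 of 17 rose (median 0.12), *Hnf4a* by at least 2.90 and *Nr1i3*, the receptor CAR, by 1.39 as the mean of probes at 2.05 and 0.73. None of the genes of cholesterol supply (median -0.14) or of the clock (0.02) changed in the uterus. Over 20 probes of the other bile acid genes with a liver level at least 16-fold above the uterus, the median excess was 0.834% of the liver level, from -0.536 to 2.78%. At the same cut the median was 0.702% over 5 probes of the 9 genes and 6.29% over 24 probes of the liver markers.

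The genes whose 6 levels lay nearest to those of *Cyp7a1*, after each gene was centred on its mean, were *Nags*, *Asgr1* and *Agxt2*, with a mean absolute difference of 0.11, 0.25 and 0.25 on the log2 scale over 6 arrays and among 17625 genes. Those nearest to *Cyp7b1* were *Fbxl21*, *Pdxk* and *C1s1* (0.06, 0.07 and 0.08), and those nearest to the median profile of the 9 genes were *Slc46a3*, *Pde6c*, *Onecut1*, *Pde6h* and *Nr1h5* (0.17, 0.20, 0.20, 0.21 and 0.21). Likeness was taken with dim levels raised to the lowest level well above background, which several of these genes share in the ovary or uterus.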

How the data were processed

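RNA of liver, ovary and uterus was labelled with Cy3 and hybridized to Agilent mouse arrays, 1 array for each of 6 groups. Spots were quantified by the authors in Agilent Feature Extraction (version 11.5.1.1 per the file headers, 9.1 in the submitters' processing notes), and the deposited scanner files hold the background-subtracted intensity of each spot. A further table deposited by the authors holds log2 values from GeneSpring GX after a percentile shift. In it, 100% of values lay within 0.001 of 1 scanner array plus a constant, with the 2 uterus columns holding each other's array. Its column medians ran from -1.66 to -1.17.

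Log2 intensities were averaged over the spots of a probe without outlier flags, and the 75th percentile of the array was subtracted. A probe counted as well above background where at least 50% of its spots were. Gene ratios are means over evaluated probes. Probes were named through RefSeq accessions, 26762 of 55681 (48.1%), giving 20284 symbols. The 9 genes were named in full. Of other lists, the rule for naming took the genes past 2-fold and the 3 with the highest level in a tissue, of which those of the marker lists and some others appear as counts only, besides those nearest in pattern (5 to the median profile, 3 each to *Cyp7a1* and *Cyp7b1*), *Alb* and *Ttr*. The genes, the lists of other bile acid, cholesterol supply, clock and cell type marker genes and the rules were chosen with earlier results of these data known. No test was made, as each group holds 1 array. The number of arrays limits the precision. Alternatives were other scalings, the authors' table, limma's normexp (offset 50, on median spot and background signals, since no mean spot signal was in the files used here), own values in place of bounds, other filters, the brightest probe and a 4-fold threshold. Python 3.11.15, pandas 2.3.3, numpy 2.4.6, matplotlib 3.10.9, R 4.3.3 and limma 3.58.1 were used, and the calculation was tested on simulated data.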

Additional observations from a re-analysis of the deposited data

How the results depend on the processing

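No paired analysis was possible because each group holds 1 array, and for the same reason no array could be left out. Under 11 alternatives listed at the start and 1 added after seeing the data (without the bright *Slc10a1* probe), no gene of the 9 changed by 2-fold in the liver or ovary. Of 286 single ratios recomputed, 253 stayed within the error of a single-spot ratio in that tissue, 30 moved further and 3 were reversed past 2-fold. That error was 0.15 to 0.16, wider than the error of the 10-spot probes of *Amacr* and *Cyp27a1*. Many ratios could not move, as a 4-fold threshold leaves them as they are and the authors' table holds the same arrays plus a constant. Settings for bounds and dim probes likewise leave a ratio measured on both arrays by 1 probe unchanged. The reversals came from the authors' table with its uterus columns as headed, which gave -2.05 for *Cyp7a1*, -1.34 for *Baat* and -3.53 for *Slc27a5*. The other evaluated uterus ratios also changed sign there but stayed within 2-fold. They were -0.62 for *Slc10a1*, -0.31 for *Amacr*, -0.20 for *Cyp27a1*, -0.15 for *Hsd3b7* and 0.03 for *Cyp7b1*. With the uterus columns as headed, the median was -0.47 over the 8 genes evaluated and -0.21 over the other bile acid genes, with an excess of -1.83% of the liver level. With those columns exchanged the directions were those of the scanner files. With probes well above background on both arrays, the median uterus ratio was 0.26 over 6 genes, and 1 gene was changed. That filter takes out *Cyp7a1* and *Baat*, which were among the genes that rose. Over the 8 genes evaluated, the median was 0.26 with the brightest probe and 0.76 without the bright *Slc10a1* probe. The other bile acid genes changed in the uterus were 3 with probes above background on both arrays and 5 at 4-fold. Scaling to the 50th percentile gave a median of -0.21 for the 9 genes and -0.23 for the others in the liver, and an excess of 0.549% in the uterus. The single other bile acid gene changed in the liver, *Vdr*, became 0 with the 50th percentile, quantile normalization or 4-fold. The share of all genes changed became 3.05% in liver and 1.83% in uterus with probes above background on both arrays, 10.4, 2.72 and 4.66% in liver, ovary and uterus with no filter on dim probes, 0.844, 0.184 and 1.33% at 4-fold, and 1.82% in ovary with own values in place of bounds. Fewer or more genes pass by construction of these filters and of the threshold. Scaling to the 50th percentile shifts all ratios of a tissue by 1 constant, so the 9 liver ratios that moved there share 1 shift. Why the percentiles of the liver arrays differed in this way was not tested.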
